A study of Mus musculus with 2 samples.

Results

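The 9 genes described here, Mbp, Mog, Mag, Mobp, Cnp, Cldn11, Mal, Opalin and Ermn, encode proteins of central nervous system myelin or of the oligodendrocyte that makes it. They were chosen by name from the 32289 features of the deposited feature list, and each of the 9 was found there once, as ENSMUSG00000041607 (Mbp), ENSMUSG00000076439 (Mog), ENSMUSG00000036634 (Mag), ENSMUSG00000032517 (Mobp), ENSMUSG00000006782 (Cnp), ENSMUSG00000037625 (Cldn11), ENSMUSG00000027375 (Mal), ENSMUSG00000050121 (Opalin) and ENSMUSG00000026830 (Ermn). They were followed in 2 single-nucleus libraries of the mouse anterior hypothalamus, including the preoptic area, in a study of ageing, water balance and thermoregulation. The aged library pooled tissue of 5 male mice of 22 months and the young library tissue of 5 wild-type male mice of 3 months. The labels give no genotype for the aged mice and no strain. Pooled tissue was homogenised, nuclei were spun through iodixanol, beads removed myelin, and a DAPI sort came before droplet capture, per the labels' protocols. With 1 library per age there was no replicate and no test between ages. Age, pool and library cannot be told apart, and every 95% interval below covers counting error only.

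Oligodendrocytes wrap axons in compacted membrane. Mbp, myelin basic protein, holds the cytoplasmic faces of that membrane together. Mobp is a small basic protein of the same membrane. Mog lies on the outermost surface of the sheath, Mag on its innermost surface facing the axon. Cnp, a phosphodiesterase that binds the cytoskeleton, keeps cytoplasmic channels in myelin open. Cldn11 is the tight junction claudin of the sheath. Mal is a proteolipid of glycosphingolipid-rich membrane. Opalin is a transmembrane glycoprotein of oligodendrocytes and Ermn an actin-binding protein found late in myelination. The cells arise from precursors marked by Pdgfra and Cspg4, through a committed stage at which Enpp6 and Bcas1 are high. In mature oligodendrocytes, Sox10 and Myrf are transcription factors that hold the myelin programme on.

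RefSeq start sites of the mouse build GRCm38.p6 were at hand for 8 of the 9 genes, with Mbp as the exception. Upstream windows of 250 bases are shown for the 3 genes that were lower in oligodendrocytes with more Apod than Ptgds (Opalin, Mal and Cnp, of which Cnp in the aged library), for Mobp, which held most copies of a SOX core, and for Mag, at the first of its 3 listed starts. Each reads 5′ to 3′ toward the gene and ends at the base before the start. Capitals mark, on either strand, the SOX core ACAAAG, the Myrf core CTGGCAC and the GC box GGGCGG.
Opalin (chr19:41077114-41077363, minus strand): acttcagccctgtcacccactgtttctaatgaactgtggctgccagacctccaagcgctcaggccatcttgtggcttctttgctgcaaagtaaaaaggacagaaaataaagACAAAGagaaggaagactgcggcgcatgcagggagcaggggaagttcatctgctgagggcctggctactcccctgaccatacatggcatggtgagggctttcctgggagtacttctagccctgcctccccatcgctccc
Mal (chr2:127656696-127656945, minus strand): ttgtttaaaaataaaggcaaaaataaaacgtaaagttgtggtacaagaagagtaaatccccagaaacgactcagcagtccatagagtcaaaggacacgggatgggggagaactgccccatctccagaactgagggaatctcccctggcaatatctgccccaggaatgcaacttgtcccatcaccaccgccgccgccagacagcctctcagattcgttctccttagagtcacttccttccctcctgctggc
Cnp (chr11:100574689-100574938, plus strand): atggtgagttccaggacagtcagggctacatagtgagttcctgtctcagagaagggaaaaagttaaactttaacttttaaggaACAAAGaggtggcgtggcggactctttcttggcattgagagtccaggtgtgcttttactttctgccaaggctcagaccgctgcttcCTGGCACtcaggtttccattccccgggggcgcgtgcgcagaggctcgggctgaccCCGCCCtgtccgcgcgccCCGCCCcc
Mobp (chr9:120149492-120149741, plus strand): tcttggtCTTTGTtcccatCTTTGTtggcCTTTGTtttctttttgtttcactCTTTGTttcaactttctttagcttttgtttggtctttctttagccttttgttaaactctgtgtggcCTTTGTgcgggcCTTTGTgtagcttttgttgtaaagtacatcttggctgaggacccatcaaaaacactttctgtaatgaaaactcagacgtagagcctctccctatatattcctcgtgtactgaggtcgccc
Mag (chr7:30914864-30915113, minus strand): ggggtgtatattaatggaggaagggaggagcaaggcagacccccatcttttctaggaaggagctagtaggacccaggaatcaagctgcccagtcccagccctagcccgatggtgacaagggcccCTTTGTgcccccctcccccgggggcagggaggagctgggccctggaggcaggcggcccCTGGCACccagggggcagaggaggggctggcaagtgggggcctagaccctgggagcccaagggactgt

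ACAAAG was found upstream of 4 of the 8 genes (Mag, Mobp, Cnp and Opalin), with 6 copies at Mobp, against 16.5% of 32851 RefSeq windows of 250 bases. CTGGCAC was found at 2 of the 8 (Mag and Cnp), against 4.19% of windows. Its variant CTGGTAC was found at 1 (Mog), against 1.83%. GGGCGG was found at 1 (Cnp, 2 copies), against 32.7%. ACAAT was found at 1 (Ermn), against 27.7%. CANNTG, the E-box, was found at 3, against 66.2%. TATAAA was found at 0 of 8, against 12.4%. The windows of Mal and Cldn11 held none of these motifs. The letters are a description of the sequence, not of binding.

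After removal of barcodes with under 500 genes or over 5% mitochondrial UMIs (unique molecular identifiers, the counted molecules), and of 368 aged and 489 young doublets, 8229 aged and 9948 young nuclei remained, of which 21 barcodes occurred in both libraries. Clustering was done without the 9 genes, and classes carry names from other markers. The classes used here were oligodendrocytes (1881 aged and 2132 young nuclei), precursors (183 and 253), neurons (4998 and 6429), microglia (427 and 501), astrocytes (156 and 388), endothelial (23 and 24), mural (28 and 38) and fibroblast nuclei (16 and 95). A cluster of low depth stayed unnamed and held 517 aged and 88 young barcodes, with median depths of 683 and 708 UMIs. Median depth in oligodendrocytes was 2023 aged and 1891 young UMIs. In them the 14 oligodendrocyte markers summed to 20074 aged and 20141 young CPM (the usual abundance unit, in which the UMIs of a gene are scaled to a common total per class). The 12 neuron markers summed to 1443 and 1071 CPM there, 1.35-fold higher in the aged library. Sums with free RNA subtracted are given for oligodendrocytes, for the groups with more Apod or more Ptgds, and for microglia.

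In oligodendrocytes, the 9 genes together were 1.07-fold lower in the aged library (1.06 to 1.09), at 9984 CPM against 10698 in the young. Every oligodendrocyte nucleus of either library held at least 1 UMI of the set (median 20 in both). The genes did not share a direction. Mbp, Mobp, Mal, Ermn and Mag were lower in the aged library and Mog, Cnp, Opalin and Cldn11 higher. Each had an interval beyond a ratio of 1 and differed by under 1.2-fold. Scaled to the median gene, Cldn11 turned to 0.997, and the intervals of Mog, Cnp, Opalin and Cldn11 all included 1. With the free RNA of barcodes of 100 or fewer UMIs subtracted, the intervals of Mag (0.958 to 1.04) and Ermn (0.893 to 1.02) included 1. Mag turned to 1.01 when the profile of unnamed barcodes of low depth was subtracted.

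Mbp, the membrane adhesion protein, stood at 2841 CPM aged and 3317 CPM young, 1.17-fold lower in the aged library (1.14 to 1.2). Mobp stood at 1355 and 1571 CPM, 1.16-fold lower (1.12 to 1.2). Both basic proteins of the membrane's cytoplasmic face thus had the lowest ratios of the set. Mal stood at 1454 and 1615 CPM, 1.11-fold lower (1.07 to 1.15). Ermn stood at 394 and 434 CPM, 1.10-fold lower (1.03 to 1.18). Mag, the periaxonal adhesion molecule, stood at 1185 and 1251 CPM, 1.06-fold lower (1.02 to 1.10), the least of the 5 lower genes.

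Of the higher genes, Cnp stood at 412 CPM aged and 361 CPM young, 1.14-fold higher in the aged library (1.06 to 1.22). Opalin stood at 386 and 349 CPM, 1.11-fold higher (1.03 to 1.19). Mog, the surface immunoglobulin-like protein, stood at 1388 and 1268 CPM, 1.09-fold higher (1.05 to 1.14). Cldn11 stood at 570 and 533 CPM, 1.07-fold higher (1.01 to 1.13), the smallest difference of the 4. Levels are not compared between genes, since counts were not scaled to gene length.

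A difference was called when it reached 1.2-fold with its interval beyond 1, in genes with 50 or more UMIs. By that rule 0 of the 9 genes were called higher and 0 lower in aged oligodendrocytes, against 16.3% of 10928 genes called higher and 5.42% called lower. The median log2 ratio of all genes tested was 0.10 and that of the 9 genes -0.08. Relative to the median gene, so that this shift of 0.10 is taken out, 2 of the 9 were called lower, Mbp at a ratio of 0.798 and Mobp at 0.804. On that scale Mog was at 1.02 (0.983 to 1.06), Cnp at 1.06 (0.991 to 1.14) and Opalin at 1.03 (0.961 to 1.11). Of all genes 9.45% were then called higher and 9.91% lower (48.8% of the calls higher, against 75% with CPM).

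**Figure D1:**
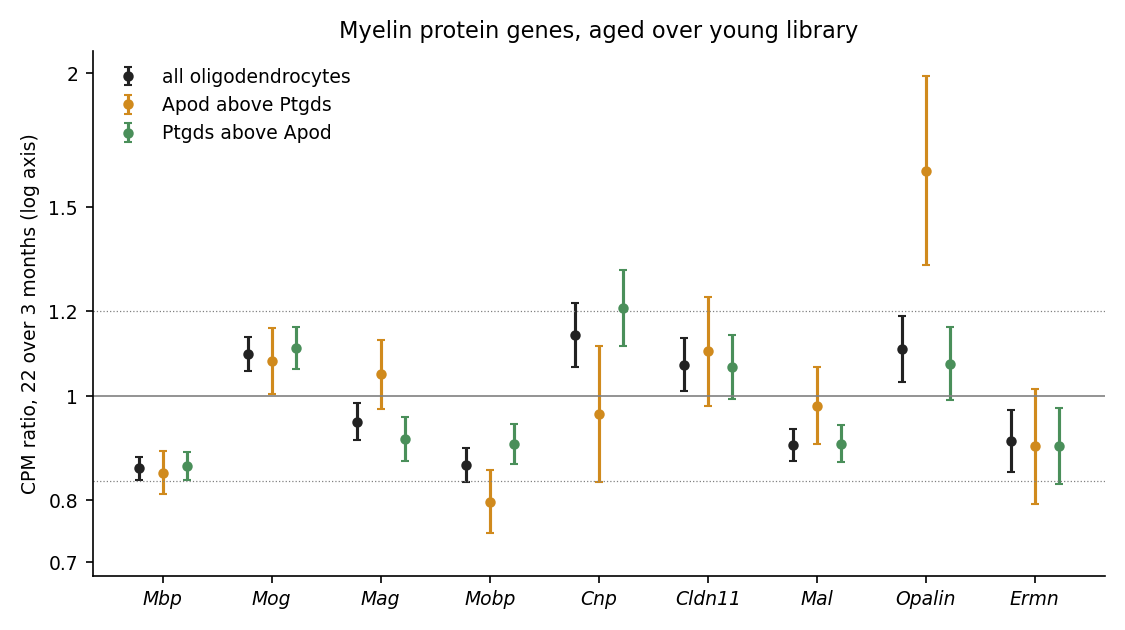
CPM ratio of the 22-month over the 3-month library on a log axis for each of the 9 genes, in all oligodendrocytes (black), in nuclei with more Apod than Ptgds UMIs (orange) and in nuclei with more Ptgds than Apod (green), with 95% counting intervals and dotted lines at 1.2-fold either way. Mbp lies between 0.849 and 0.860 in all 3, and Opalin departs furthest from 1, at 1.62, in the Apod-above nuclei.

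By ratio alone, every gene of the set but Opalin kept its direction at 3 depths, with Cldn11 at 1.00 in the middle one. In nuclei with under 1500 UMIs (330 aged, 537 young), 1500 to under 2500 (1057 and 1109) and 2500 or more (494 and 486), the Mbp ratio was 0.924, 0.832 and 0.860. That of Mog was 1.09, 1.09 and 1.11, with an interval that included 1 under 1500 UMIs (0.976 to 1.21). The Cnp ratio was 1.28, 1.12 and 1.13. Opalin was at 1.42, 1.14 and 0.974, so that it was not higher in the deepest nuclei. Subtracting the profile of free RNA, estimated as 12.4% of aged and 6.76% of young oligodendrocyte UMIs, moved the Mbp ratio to 0.903 and that of the 9 genes together to 0.981.

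Within the 3 oligodendrocyte sub-clusters, found without the 9 genes, the Mbp ratio was 0.862, 0.859 and 0.855. Mog was at 1.11, 1.09 and 1.11. Both ratios were thus alike over sub-clusters of 348 to 1094 aged and 477 to 1174 young nuclei. Sub-cluster 0 stood apart by its median mitochondrial share of UMIs, 1.48% aged and 1.19% young. That share was 0.161% and 0.134% in sub-cluster 1 and 0.234% and 0.160% in sub-cluster 2. Mobp was at 0.888, 0.896 and 0.785, the lowest value in sub-cluster 2, which held most of the nuclei with more Apod than Ptgds.

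Oligodendrocytes were then divided by UMIs of Apod, a lipocalin that carries small hydrophobic molecules, and Ptgds, the lipocalin-type prostaglandin D2 synthase. Apod was above Ptgds in 462 aged and 480 young nuclei, and Ptgds above Apod in 1298 and 1536, with ties in 121 and 116. The margin was 1 UMI in 231 aged and 241 young nuclei, so the groups are ranges and not types. Apod-above nuclei were deeper, with medians of 2355 aged and 2136 young UMIs against 1948 and 1822 in Ptgds-above nuclei. Neuron markers had a median of 11.2 aged and 8.94 young UMIs per 10000 in Apod-above nuclei, against 13.9 and 9.82 in Ptgds-above nuclei.

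Opalin and Mal were lower in Apod-above nuclei of both libraries, while most of the set stayed close to level. Opalin stood at 231 CPM in Apod-above and 452 in Ptgds-above nuclei of the aged library, 1.95-fold lower (1.71 to 2.24). In the young library it stood at 143 and 422 CPM, 2.95-fold lower (2.50 to 3.51). Its intervals did not overlap between the groups in either library. Mal stood at 1014 and 1661 CPM in the aged library, 1.64-fold lower (1.53 to 1.75). In the young library Mal stood at 1035 and 1840 CPM, 1.78-fold lower (1.67 to 1.90). With free RNA subtracted the Opalin ratio was 0.489 aged and 0.328 young and that of Mal 0.589 and 0.556.

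Cnp differed in the aged library, at 325 CPM in Apod-above and 445 in Ptgds-above nuclei, 1.37-fold lower (1.22 to 1.54). In the young library it stood at 338 and 368 CPM, 1.09-fold lower with an interval that included 1 (0.968 to 1.23). Cldn11 was 1.09-fold lower in the aged (0.991 to 1.2) and 1.12-fold lower in the young library (1.02 to 1.24). The other 5 genes, Mbp, Mog, Mag, Mobp and Ermn, had ratios from 0.974 (Mag, young) to 1.13 (Ermn, both libraries, and Mobp, young).

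By the 1.2-fold rule 3 of 9 genes were called lower in Apod-above nuclei of the aged library (Cnp, Mal and Opalin), against 8.57% of 8744 genes, and 2 of 9 in the young library (Mal and Opalin), against 8.47% of 8718. Called higher were 0 of 9 in either library, against 7.04% and 9.3% of genes. Median log2 ratios were 0.00 over the 9 genes and -0.04 over all genes in the aged library, and -0.04 and -0.01 in the young. Among the 312 genes called lower in both libraries, ranked by the weaker interval bound, Opalin was at rank 31 and Mal at rank 42. The list was headed by Ptgds, which made the groups, then by Kit, a receptor tyrosine kinase, and Synpr, a synaptic vesicle protein. The 336 genes higher in both were headed by the protease gene Klk6, then Cntn3 and Enpp6.

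**Figure D2:**
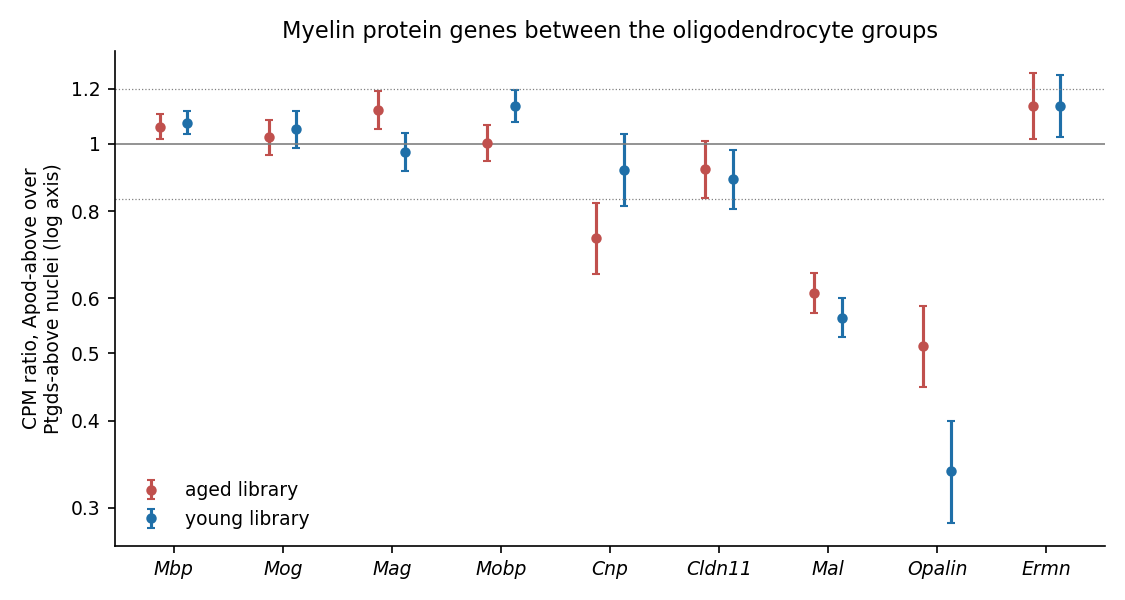
CPM ratio of Apod-above over Ptgds-above oligodendrocyte nuclei on a log axis for each gene in the aged (red) and young (blue) library, with 95% counting intervals and dotted lines at 1.2-fold either way. Opalin, at 0.512 aged and 0.338 young, and Mal, at 0.611 and 0.562, lie below the other 7 genes in both libraries.

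Over the share of Ptgds in the summed Apod and Ptgds UMIs of a nucleus, Opalin was lowest at low shares. With no Ptgds UMI it stood at 221 CPM aged and 117 young, and at shares over 0 to 40% at 219 and 146 CPM. At shares over 40 to 60% it stood at 346 and 322 CPM, at over 60 to 80% at 424 and 367, and at over 80 to under 100% at 477 and 463. The intervals of the 2 lowest bins did not overlap those of the 3 highest in either library. Mal followed the same order up to the last bin: 835 aged and 971 young CPM with no Ptgds UMI, 1835 and 2018 at over 80 to under 100%, then 1590 and 1661 where all UMIs were of Ptgds. Mbp ran gently the other way, from 3051 aged and 3431 young CPM with no Ptgds UMI to 2753 and 3176 at over 80 to under 100%. Nuclei with 0 or 100% were shallower (medians of 2079 aged and 2016 young, and 1682 and 1576 UMIs) than those at over 0 to 40% (2420 and 2195). Those with 0% were about as deep as those at over 80 to under 100% (2069 and 2046).

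**Figure D3:**
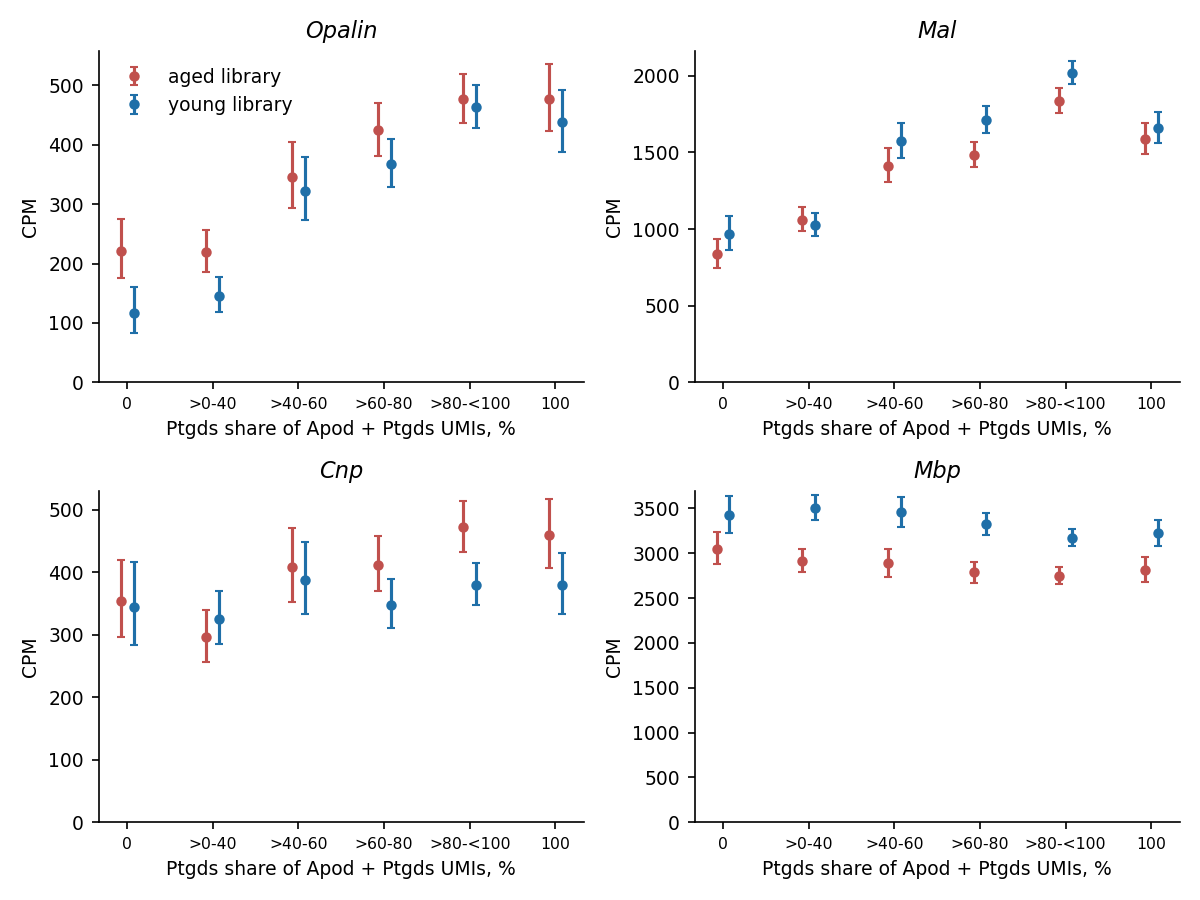
CPM of Opalin, Mal, Cnp and Mbp (y axes, from 0) in oligodendrocyte nuclei binned by the Ptgds share of their Apod and Ptgds UMIs (x axis, percent), aged library in red and young in blue, with 95% counting intervals. Opalin goes from 221 aged and 117 young CPM in the lowest bin to 477 and 463 in the fifth, and Mbp has aged values below young ones in every bin.

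Thinning each nucleus to 1000 UMIs and dividing the nuclei anew kept the gap. Opalin was then seen in 19.9% of 418 aged and 13.2% of 431 young Apod-above nuclei, against 35.3% of 1207 and 32.7% of 1420 Ptgds-above nuclei. Without thinning these nuclei gave 33.5% and 24.6%, against 56.1% and 51.7%. Thinned oligodendrocytes held a median of 10 UMIs of the set and 5 of its 9 genes in both libraries. Of the thinned nuclei 1 aged nucleus held none of the 9 genes, and 6 aged and 9 young nuclei held all 9.

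Between ages, the same groups gave partly different values. Apod and Ptgds, which made the groups, also differed between the libraries. Over all oligodendrocytes Apod was 1.12-fold higher (1.08 to 1.16) and Ptgds 1.14-fold lower (1.12 to 1.16) in the aged library. Whether the cut between the groups fell at the same place in both libraries was not tested. In Apod-above nuclei Opalin stood at 231 CPM aged and 143 young, 1.62-fold higher in the aged library (1.33 to 1.99), against 1.07-fold (0.991 to 1.16) in Ptgds-above nuclei. The 10 precursor markers also differed in the Apod-above nuclei, summing to 170 CPM aged and 84.5 young with no marker at 0. In Ptgds-above nuclei they summed to 105 and 87.8 CPM. Their median per nucleus was 0 in each of these groups. The highest nucleus had 83.4 UMIs per 10000 in aged and 14.3 in young Apod-above nuclei. These sums may thus rest on few nuclei, and the part of these markers in the Opalin values was not tested. Mobp stood at 1372 and 1721 CPM in Apod-above nuclei, 1.25-fold lower (1.17 to 1.34), and was 1.11-fold lower (1.06 to 1.16) in Ptgds-above nuclei. Cnp stood at 445 and 368 CPM in Ptgds-above nuclei, 1.21-fold higher (1.11 to 1.31), and had a ratio of 0.962 (0.832 to 1.11) in Apod-above nuclei. The ratio of ratios, Apod-above against Ptgds-above, was 1.51 for Opalin (1.22 to 1.87), 0.884 for Mobp (0.816 to 0.957), 0.797 for Cnp (0.676 to 0.940) and 1.15 for Mag (1.05 to 1.25). Its interval included 1 for the other 5 genes. The ratio of ratios was computed for genes of the set only, so no share over all genes can be set beside it. Whether these genes differ between the groups more often than other genes do was not tested.

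In Apod-above nuclei 1 of 9 genes was called higher (Opalin), against 9.82% of 6671 genes, and 1 lower (Mobp), against 5.22%. In Ptgds-above nuclei 1 of 9 was called higher (Cnp), against 16.1% of 9899 genes, and 0 lower, against 5.38%. These shares are near the background, given 9 genes. The make-up of the groups differed between the libraries: sub-cluster 2 held 254 of the 462 aged and 340 of the 480 young Apod-above nuclei, and sub-cluster 1 held 163 and 94. Within sub-cluster 2 the Apod-above nuclei had Opalin at 129 aged and 96.0 young CPM, a ratio of 1.35 (0.985 to 1.85). Within sub-cluster 1 they had it at 399 and 327 CPM, a ratio of 1.22 (0.899 to 1.68). Within sub-cluster 0, which held 45 and 46 of them, it was at 329 and 189 CPM, a ratio of 1.75 (0.945 to 3.34). The 3 ratios were above 1 and each interval included 1. Mobp in these nuclei had a ratio of 0.788 (0.726 to 0.856) in sub-cluster 2, 0.896 (0.775 to 1.04) in sub-cluster 1 and 0.658 (0.509 to 0.848) in sub-cluster 0, so its interval included 1 in sub-cluster 1.

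Lists of related genes in oligodendrocytes showed where the 9 genes sit among others of their pathway. Of 26 other myelin and sheath proteins 25 were tested, with 7 called higher and 2 lower in the aged library, against 16.3% and 5.42% of all genes, and a median log2 ratio of 0.02 against 0.10 over all genes. Hapln2, a link protein of the matrix at nodes of Ranvier, stood at 635 CPM aged and 465 young, 1.36-fold higher (1.29 to 1.45). Gjc3, the connexin of oligodendrocytes and Schwann cells, stood at 692 and 994 CPM, 1.44-fold lower (1.37 to 1.51). Pmp22 was 1.40-fold higher (1.21 to 1.61). Ndrg1 was at 149 and 189 CPM, 1.27-fold lower (1.15 to 1.42). These 4 genes differed by more than any of the 9 genes in undivided oligodendrocytes. They were picked as the extremes of the 25 by interval bound, so this says nothing about the 9 genes.

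Of 34 genes of myelin lipid synthesis and transport, 5 were called higher and 2 lower, which is near those shares of all genes, with a median log2 ratio of -0.02. Abca8a, a lipid transporter, stood at 387 CPM aged and 210 young, 1.84-fold higher (1.7 to 2.0). Srebf1, the transcription factor of fatty acid synthesis, stood at 52.8 and 35.8 CPM. Scd2, a fatty acid desaturase, stood at 1289 and 1571 CPM, 1.22-fold lower (1.18 to 1.26), and Cyp51, a sterol demethylase, at 39.1 and 53.1 CPM. Of the transcription factors 24 of 27 were tested, with 3 called higher and 0 lower, again near the shares of all genes. Olig1 stood at 204 and 162 CPM, 1.26-fold higher (1.14 to 1.40). Sox10 was at 369 and 413 CPM, 1.12-fold lower (1.04 to 1.2), and Zfp536 at 1588 and 1711 CPM, which did not reach the 1.2-fold limit. Sox6, a factor of precursors, had 37 aged and 20 young UMIs.

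Of 19 genes of axon contact and paranodes, 2 were called higher and 2 lower, against 16.3% and 5.42% of all genes. Cntn1, the paranodal contactin, stood at 51.9 CPM aged and 85.2 young, 1.64-fold lower (1.38 to 1.95). Hnrnpa2b1, which binds the Mbp transcript in its transport to the sheath, stood at 388 and 467 CPM, 1.2-fold lower (1.13 to 1.29). Epb41l3 was at 372 and 309 CPM, 1.21-fold higher (1.12 to 1.30). Free RNA held more of Cntn1 than oligodendrocytes did: barcodes of 100 or fewer UMIs had Cntn1 at 250 and 346 CPM. Of 12 precursor genes 8 were tested, with 2 called higher (Sox6 and Lhfpl3) and 0 lower. Both stood far higher in barcodes of 100 or fewer UMIs, Sox6 at 49.7 aged and 81.5 young CPM against 9.05 and 4.56 in oligodendrocytes, and Lhfpl3 at 239 and 370 CPM against 36.2 and 23.7. Free RNA was estimated as 12.4% of aged and 6.76% of young oligodendrocyte UMIs, and its part in these calls was not tested. Bcas1 stood at 547 and 600 CPM, 1.10-fold lower (1.04 to 1.16), and Cspg4 at 10.5 and 11.2 CPM.

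Between the groups with more Apod or more Ptgds, the same lists gave other genes of the sheath in both directions. Of the 25 other myelin proteins tested, 7 were called higher and 4 lower in aged Apod-above nuclei (all genes, 7.04% and 8.57%), and 9 and 6 in young ones (9.3% and 8.47%). Hapln2, Gsn, Anln, Pmp22, Cmtm5 and Gjb1 were among those higher in both libraries, and Nfasc, Tspan2, Cd9 and Pllp lower in both. Of the lipid genes (30 tested aged, 32 tested young) 7 were higher and 2 lower in either library, with Elovl5, Gal3st1, Acaca, Elovl7 and Sgms1 higher in both and Fads1 lower in both. Of 20 transcription factors 1 was higher and 4 lower in the aged library and 1 and 3 in the young, with Mitf higher and Zfp488 and Olig1 lower in both. Of 18 genes of axon contact and paranodes 2 were higher and 5 lower in the aged library, and 4 and 6 in the young, with Kif1b and Epb41l3 higher and Nfasc, Kirrel3, Lgi3 and Cntn1 lower in both.

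Precursors held the set at a low level in both libraries, apart from a small committed sub-cluster. Over all precursors the 9 genes summed to 224 CPM aged and 599 young, 2.68-fold lower in the aged library (2.27 to 3.17). Mbp stood at 77.9 and 369 CPM, 4.73-fold lower (3.63 to 6.27), Mag at 12.2 and 42.7 CPM, 3.50-fold lower (1.74 to 7.80), and Cldn11 at 11.0 and 40.8 CPM, 3.72-fold lower (1.79 to 8.68). With 50 or more UMIs 5 of the 9 genes were tested. Of these 3 were called lower (Mbp, Mag and Cldn11), against 7.41% of 6507 genes, and 0 higher, against 8.21%. Mag, with 10 aged and 45 young UMIs, and Cldn11, with 9 and 43, passed the limit of 50 UMIs mainly through the young library. The share called is therefore not read as a result about the set.

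The committed sub-cluster, named from markers other than the set, held 2 of 183 aged and 21 of 253 young precursor nuclei. Its young nuclei carried 334 of the 389 young precursor UMIs of Mbp, 37 of 45 of Mag, 29 of 43 of Cldn11 and 25 of 54 of Cnp. Without it, the 9 genes summed to 212 CPM in 181 aged and 201 CPM in 232 young nuclei, a ratio of 1.06 (0.853 to 1.31). Mbp was then at 66.5 and 59.6 CPM (ratio 1.12, 0.752 to 1.65). The difference over all precursors thus rests on these 2 aged and 21 young nuclei, and whether capture or clustering set their number was not tested.

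In the 21 young committed nuclei, the members were unequally present. Mbp was seen in 17 of them, with a lowest count of 0, a median of 13 and a highest of 68 UMIs, and its level of 2539 CPM was 76.5% of that in young oligodendrocytes. Cnp was at 52.6% of its oligodendrocyte level, Cldn11 at 41.4% and Mag at 22.5%, seen in 13, 9 and 12 nuclei. The other 5 genes were far lower: Mal at 4.71%, Mog at 3.60%, Opalin at 2.18%, Mobp at 1.94% and Ermn at 1.75% of their oligodendrocyte levels, from 10, 6, 1, 4 and 1 UMIs. Bcas1, which names the stage, had 8 to 96 UMIs in these nuclei and Pdgfra, of earlier precursors, 1 UMI in all 21. The 10 precursor markers, Pdgfra among them, still summed to 14921 CPM in these nuclei, against 19042 CPM in the other young precursors. The 2 aged nuclei had 9 and 1 UMIs of Mbp and 0 of Mog, Mag, Mobp, Cldn11, Mal and Ermn. In young microglia, which do not make myelin, the same 5 genes were at 2.01% (Mog) to 7.53% (Ermn).

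**Figure D4:**
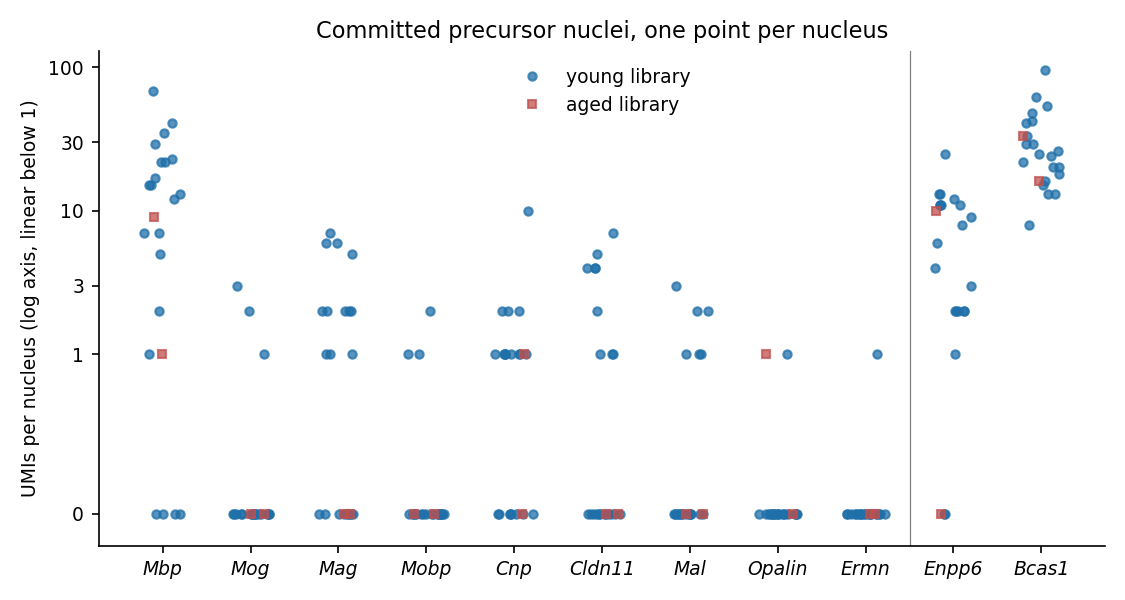
UMIs per nucleus (y axis, log above 1 and linear below) of the 9 genes and of the stage markers Enpp6 and Bcas1 in the 21 young (blue circles) and 2 aged (red squares) committed precursor nuclei, 1 point per nucleus, spread sideways for display. Mbp reaches 68 UMIs and is at 0 in 4 young nuclei, whereas Mog, Mobp, Mal, Opalin and Ermn are at 0 in most nuclei.

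In the other classes the 9 genes together were at low levels. In microglia they summed to 415 CPM aged and 423 young, 4.15% and 3.95% of the oligodendrocyte level. Their ratio of 0.981 there moved to 0.654 with the free RNA of barcodes of 100 or fewer UMIs subtracted and to 0.179 with that of the unnamed barcodes, so it rests on how free RNA is treated. Astrocytes were at 270 and 269 CPM (2.70% and 2.52%), neurons at 143 and 123 CPM (1.44% and 1.15%), and precursors without the committed sub-cluster at 2.12% and 1.87%. Neurons, the deepest class with medians of 8353 aged and 7761 young UMIs, had the lowest share of the set in their UMIs. Barcodes of 100 or fewer UMIs, which hold free RNA, were at 1586 and 1409 CPM, 1.13-fold higher in the aged library (1.07 to 1.19). The unnamed barcodes of low depth were at 1929 and 1305 CPM, 1.48-fold higher (1.2 to 1.83).

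The set was not spread evenly over these classes. Cnp was at 52.0% aged and 38.7% young of its own oligodendrocyte level in barcodes of 100 or fewer UMIs, where Mbp was at 12.7% and 10.1%. In neurons Cnp was at 5.78% and 5.96% of its oligodendrocyte level and Mbp at 1.74% and 1.24%. In microglia Cnp was at 15% and 15.6% and Mbp at 4.17% and 2.59%, and in astrocytes at 13.3% and 18.2% and at 1.99% and 1.32%. Cnp was thus above the other 8 genes in this measure in barcodes of 100 or fewer UMIs, microglia, astrocytes and neurons of both libraries. Cnp overlaps Dnajc7 on the opposite strand in the GENCODE M21 annotation, which had 1099 UMIs in oligodendrocytes, and Ermn overlaps Galnt5 likewise. The labels and file headers do not say whether counting used strand, so reads of such a pair may not be told apart.

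Mal had another exception. In endothelial nuclei (23 aged, 24 young) it stood at 422 and 392 CPM, from 29 and 21 UMIs, 29.0% and 24.3% of its oligodendrocyte level, where Mbp was at 6.15% and 6.19%. Of the 63 aged and 48 young endothelial UMIs of the whole set, 18 and 13 came from 1 nucleus in each library. In microglia Mal was at 5.38% and 5.82%. Mural nuclei (28 and 38) held the set at 1604 and 489 CPM, from 90 and 56 UMIs, of which 30 and 35 came from 1 nucleus in each library.

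**Figure D5:**
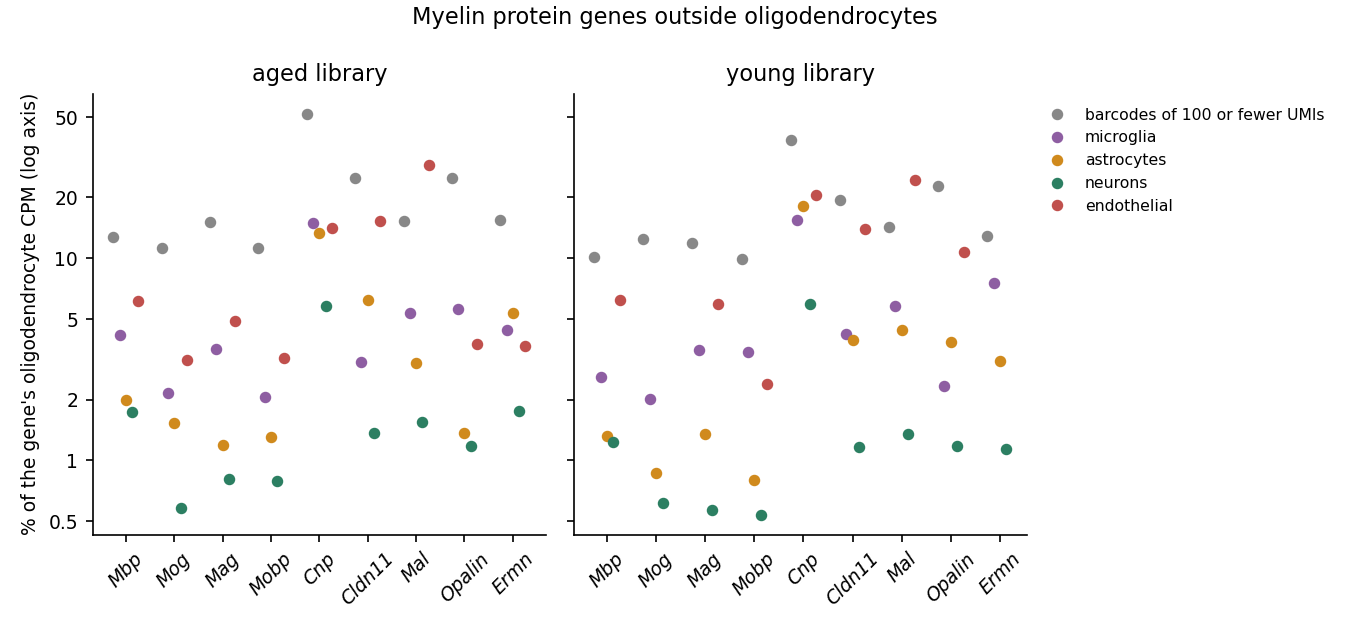
Level of each gene as a percent of its CPM in oligodendrocytes of the same library (log axis) in barcodes of 100 or fewer UMIs (grey), microglia (purple), astrocytes (orange), neurons (green) and endothelial nuclei (red), aged library left and young right. Mog and Ermn had 0 UMIs in young endothelial nuclei and have no point there. Cnp is at 52.0% and 38.7% in barcodes of 100 or fewer UMIs, and Mal at 29.0% and 24.3% in endothelial nuclei.

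Between ages, the low levels moved in more than 1 direction. Barcodes of 100 or fewer UMIs had Cnp at 214 CPM aged and 140 young, 1.53-fold higher (1.31 to 1.80), Cldn11 at 143 and 103 CPM, 1.39-fold higher (1.15 to 1.68), and Mbp at 360 and 336 CPM, with an interval that included 1 (0.962 to 1.19). Neurons had the set 1.17-fold higher in the aged library (1.13 to 1.21), with Ermn 1.41-fold (1.2 to 1.67), Mag 1.35-fold (1.18 to 1.55), Mobp and Cldn11 1.26-fold and Mbp 1.2-fold higher. In microglia Mbp was at 118 and 85.8 CPM, 1.38-fold higher (1.03 to 1.85), Opalin at 21.6 and 8.17 CPM, from 21 and 8 UMIs, and Mobp at 27.8 and 54.1 CPM, 1.95-fold lower (1.2 to 3.22). The share of free RNA was estimated from neuron genes in microglia as 15.5% aged and 10.0% young. Thinned to 1000 UMIs, 8.98% of aged and 8.42% of young microglia had a UMI of Mbp (21.1% and 11.4% without thinning, at median depths of 2130 and 1795 UMIs), against 92.4% and 95.2% of oligodendrocytes (98.1% and 98.6%).

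Genes whose levels followed those of the set most closely were described by Pearson's r of log2 CPM. Over 14 points, 7 classes in 2 libraries, they included Efcab14 (0.965), Anln (0.963), Ptgds (0.960) and Apod (0.960). Over 6 points, the 3 oligodendrocyte sub-clusters in 2 libraries, they were Prmt9, Zfp316, U2surp, Sall2 and Pkd1l3, at 0.974 to 0.9999. The points share libraries and depth, those of the sub-clusters are few, and the values are a description.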

How the data were processed

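Nuclear RNA of pooled tissue was measured in 1 library per age. The authors deposited unfiltered UMI counts per gene and barcode, with no normalisation, from Cell Ranger 4, per the file headers (the submitters' processing notes name Cell Ranger too). For build, annotation, introns and strand, what the counting used was in no label or header. The 2 matrices list 79107368 aged and 87520038 young UMIs.

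Barcodes with 500 or more genes and at most 5% mitochondrial UMIs were kept (8597 aged, 10437 young), and Scrublet doublet calls (4.28% and 4.69%) left out. Both libraries were clustered together in scanpy 1.11.5 without the 9 genes, by Leiden at resolution 1, or 0.5 for oligodendrocytes alone (2000 variable genes, 30 principal components, 15 neighbours). Clusters were named from marker lists with 3 or more markers detected, and the names are rebuilt. UMIs were summed per class and library and given as CPM. Ratios carry exact conditional binomial, levels exact Poisson and shares Clopper-Pearson 95% intervals (scipy 1.17.1), for counting error only. The interval script was checked on simulated data. Free RNA was taken from barcodes of 100 or fewer UMIs, its fraction from neuron markers. Promoters came from a RefSeq table. The likeness was computed on log2 of CPM plus 5.

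Besides the 9 genes, Apod and Ptgds, each fixed list gave the 2 genes highest and the 2 lowest in the aged library by interval bound, and 5 genes each were named for likeness over classes and over sub-clusters. Other genes (those heading the ranks between the groups, the stage markers and the list genes called between the groups) were named after their values were seen. Some genes that these rules name are not reported here. The members and lists were chosen with earlier results of these data known.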

Additional observations from a re-analysis of the deposited data

Results flagged for a closer look

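Some members had an interval above 1 in a class and below 1 in another when the aged library was set over the young. None of these differences between classes was tested, since there was 1 library per age. Mbp was at a ratio of 1.2 in neurons and 1.38 in microglia, against 0.849 in Apod-above oligodendrocytes, 0.86 in Ptgds-above oligodendrocytes and 0.211 in precursors. Mag was at 1.35 in neurons, against 0.912 in Ptgds-above oligodendrocytes and 0.285 in precursors. Mobp was at 1.26 in neurons, against 0.797 in Apod-above and 0.902 in Ptgds-above oligodendrocytes and 0.513 in microglia. Cldn11 was at 1.26 in neurons and 0.269 in precursors. Without the committed sub-cluster the precursor ratios were 1.12 for Mbp, 1.42 for Mag and 0.730 for Cldn11, each with an interval that included 1. Ermn was at 1.41 in neurons, against 0.899 in Ptgds-above oligodendrocytes and 0.535 in microglia. In microglia Mobp had 27 aged and 53 young UMIs and Ermn 17 and 32. Barcodes of 100 or fewer UMIs held the 9 genes 1.13-fold higher in the aged library. The part of this free RNA in the neuron values, and in the microglia values of single genes, was not tested.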

How the results depend on the processing

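No paired analysis was possible because each age has 1 library. Main ratios were 0.933 for the 9 genes together in oligodendrocytes, 0.936 aged and 0.940 young for Apod-above against Ptgds-above nuclei, 0.981 in microglia and 0.374 in precursors. With 1000 or more genes the oligodendrocyte ratio was 0.920. With doublets kept it was 0.916, the precursor ratio 0.571 and the Apod-above ratios turned direction, to 1.02 aged and 1.01 young. That setting added 168 aged and 193 young doublet calls, of median depth 9989.5 and 9015 UMIs, to oligodendrocytes. With free RNA subtracted the oligodendrocyte ratio was 0.981, the aged Apod-above ratio 0.911 and the microglia ratio 0.654. With the profile of the unnamed barcodes, chosen after seeing the data, these were 0.983, 0.90 and 0.179, and the oligodendrocyte ratio of Mag turned to 1.01. Scaled by the median of gene ratios, the oligodendrocyte ratio was 0.869 with 2 members called lower, the aged Apod-above ratio was 0.961, and Cldn11 in oligodendrocytes turned to 0.997. Over all genes that scaling gave 1033 calls higher and 1083 lower, against 1777 and 592. Thinned, the young Apod-above ratio was 0.964. Without the committed sub-cluster, also chosen after seeing the data, as were all alternatives for precursors, the precursor ratio turned to 1.06, that of Mbp to 1.12 and that of Mag to 1.42. Members called higher stayed at 0 in all 13 alternatives. Opalin and Mal stayed lower in Apod-above nuclei in all 12, with Opalin at 0.333 to 0.588 aged and 0.306 to 0.362 young. Precursor, microglia, astrocyte, endothelial, mural and fibroblast values rest on few UMIs of the 9 genes (25 to 632 per class and library), which limits their precision.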
